A study of Mus musculus with 4 samples.

Results

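SEC-PRO is the name the authors gave to secretory progenitors among tdTomato-positive (TOM+) epithelial cells sorted from mouse duodenal crypts and profiled by 10x Genomics single-cell 3' RNA sequencing. Membership was taken from the cell-type column of the authors' deposited cell tables, joined by library and cell barcode to the raw unique molecular identifier (UMI) counts, each UMI standing for 1 captured RNA molecule. The name held 1798 of the 15234 kept cells, spread over 12 cell-type names. By library there were 543 SEC-PRO cells in WT replicate 1, 387 in WT replicate 2, 5 in APC-KO replicate 1 and 863 in APC-KO replicate 2. Because of the 5 cells, APC-KO replicate 1 was left out of the counts of genes and is given beside them as a value only.

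The WT mice carried Atoh1CreER-T2 and R26RTom. The APC-KO mice carried R26RTom and Apcfl/fl, with the driver written as Atoh1Cre in the sample labels and as Atoh1CreER-T2 in the series' design text. All mice received 2 doses of tamoxifen (1 mg/mL) 24 h apart and were harvested 12 h after the second, so recombination in both genotypes was driven from an Atoh1-based Cre and the sort kept cells that had recombined the reporter. Each genotype had 2 libraries; the sources used here give no sex, age or number of animals behind a library, so tests over libraries measure only the spread between these libraries.

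In the intestinal crypt, stem cells (ISC) divide and their daughters choose between absorptive and secretory fates through Notch signalling. A daughter that escapes Notch expresses the transcription factor ATOH1, presents the Notch ligand DLL1 to its neighbours, and goes on to form goblet, Paneth, enteroendocrine or tuft cells. A secretory progenitor is the stage at which ATOH1 is already present and the cell still divides. The types set against it here were ISC (2061 cells), GP (1862 cells, led by goblet genes), and EEC-PRE (542 cells, led by enteroendocrine genes), with the remaining names used only to rank levels.

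3 of the genes that mark SEC-PRO act in mitosis: Top2a (topoisomerase II alpha, which untangles sister chromatids), Ccnb2 (cyclin B2, a partner of the mitotic kinase) and Cenpf (a kinetochore protein). Their promoters are shown because these 3 markers were higher in SEC-PRO than in GP. Each is from RefSeq, build GRCm38.p6, minus strand, running from 250 bases before to 20 bases after the start site: Top2a at chr11:99024170-99024439, Ccnb2 at chr9:70421535-70421804 and Cenpf at chr1:189688067-189688336. Capitals mark letters of the cell cycle homology region, CHR (TTTGAA, searched on both strands as itself and as TTCAAA, with the variant TTCGAA), and of the CCAAT box, which reads ATTGG on the other strand.
Top2a: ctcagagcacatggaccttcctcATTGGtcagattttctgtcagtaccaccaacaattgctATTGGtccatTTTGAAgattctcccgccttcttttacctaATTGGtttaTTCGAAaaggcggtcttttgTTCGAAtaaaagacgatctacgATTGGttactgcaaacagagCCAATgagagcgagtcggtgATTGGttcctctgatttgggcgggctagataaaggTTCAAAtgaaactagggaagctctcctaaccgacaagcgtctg
Ccnb2: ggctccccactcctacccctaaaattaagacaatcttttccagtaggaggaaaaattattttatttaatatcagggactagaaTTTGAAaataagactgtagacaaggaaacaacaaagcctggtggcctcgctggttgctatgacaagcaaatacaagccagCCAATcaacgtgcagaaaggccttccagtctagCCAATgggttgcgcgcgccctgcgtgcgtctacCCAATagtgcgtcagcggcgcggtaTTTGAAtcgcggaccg
Cenpf: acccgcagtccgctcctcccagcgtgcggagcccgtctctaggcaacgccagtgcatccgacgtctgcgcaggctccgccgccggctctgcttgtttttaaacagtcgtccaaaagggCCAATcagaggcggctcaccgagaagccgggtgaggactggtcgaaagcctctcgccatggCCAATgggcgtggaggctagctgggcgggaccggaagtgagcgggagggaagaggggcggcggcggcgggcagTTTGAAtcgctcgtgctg
The Top2a window held 4 CHR-like and 6 CCAAT-like matches. The Ccnb2 window held 2 and 3, with the CHR-like letters nearest the start site beginning at base 5 after it. The Cenpf window held 1 CHR-like match, beginning at base 3 after the start site, and 2 CCAAT-like matches. These short motifs are common: over all 32851 promoter windows of this length, 18.0% held a CHR-like match, 35.4% a CCAAT-like match and 6.65% both. Of the 34 G2/M genes that were higher in SEC-PRO than in GP (below), 30 had a promoter. Of these 20, or 66.7%, held both kinds of letters, against 7.68% of all 27025 genes with a promoter. Among all 133 genes higher than in GP with a promoter, which include these 30, the share was 30.1%. Among the 4691 genes counted against GP it was 6.42%. The 30 genes come from a fixed G2/M list, so their share describes that list and is no result about SEC-PRO. The matches describe letters in the windows and do not show that a factor was bound.

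The 4 matrices held between 54230249 and 61032126 UMIs. Cells the authors kept took 40.4% and 37.6% of the UMIs in the WT libraries, 50.3% in APC-KO replicate 2 and 5.15% in APC-KO replicate 1, which kept only 356 cells. Summed over SEC-PRO cells, the libraries gave 3040184, 2223963, 25720 and 4088983 UMIs, in the order WT replicates 1 and 2, APC-KO replicates 1 and 2, and values below follow this order. The median SEC-PRO cell held 5603, 5878, 6082 and 4460 UMIs. Pairs of libraries shared between 1 and 8 kept barcodes, none of them named SEC-PRO in both. Levels are given in CPM, the UMIs of a gene scaled to a common total of UMIs for each library and name.

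The 5 markers bear out the name in part. All 3 mitotic genes were highest in SEC-PRO among the 12 names in each of WT replicate 1, WT replicate 2 and APC-KO replicate 2. Top2a (11:98992943-99024189 in the GENCODE annotation of GRCm38) stood at 416, 269, 544 and 640 CPM in SEC-PRO, at 368, 207, 554 and 541 CPM in ISC, and between 14.1 and 25 CPM in GP. Ccnb2 (9:70407692-70421547) was at 98.3, 72.8, 311 and 97.3 CPM in SEC-PRO and at 77.9, 72.4, 79.2 and 80.5 CPM in ISC. Cenpf (1:189640606-189688086) was at 217, 134, 311 and 220 CPM in SEC-PRO and at 175, 106, 251 and 191 CPM in ISC. SEC-PRO and ISC therefore held these mitotic genes at similar levels, while GP and EEC-PRE held them near or under 40.2 CPM for Ccnb2, 39.6 CPM for Cenpf and 25 CPM for Top2a, apart from Ccnb2 at 41.7 CPM in the GP cells of APC-KO replicate 1.

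Atoh1, which drives the secretory fate, did not single out SEC-PRO. Atoh1 (6:64729125-64731245) was at 146, 181, 77.8 and 94.4 CPM in SEC-PRO, against 170, 176, 313 and 134 CPM in GP, and SEC-PRO ranked 4, 2 and 5 of 12 in the libraries with enough cells. ISC held 19.6, 9.22, 0 and 6.85 CPM of Atoh1, and EEC-PRE 2.69, 1.80, 0 and 10.5 CPM. Dll1 (17:15367354-15376872) was at 212, 246, 194 and 126 CPM in SEC-PRO and ranked first in both WT libraries. In APC-KO replicate 2 it ranked 3, below GP at 162 CPM and EEC-PRE at 147 CPM. The mean of Dll1 in EEC-PRE of the WT libraries was 188 CPM. ISC held 28.6, 34.8, 26.4 and 19.0 CPM of Dll1. SEC-PRO thus paired the mitotic genes of ISC with the Atoh1 and Dll1 of GP, and EEC-PRE also held Dll1 at a similar level. These levels describe how the authors named the cells and are no test.

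**Figure D1:**
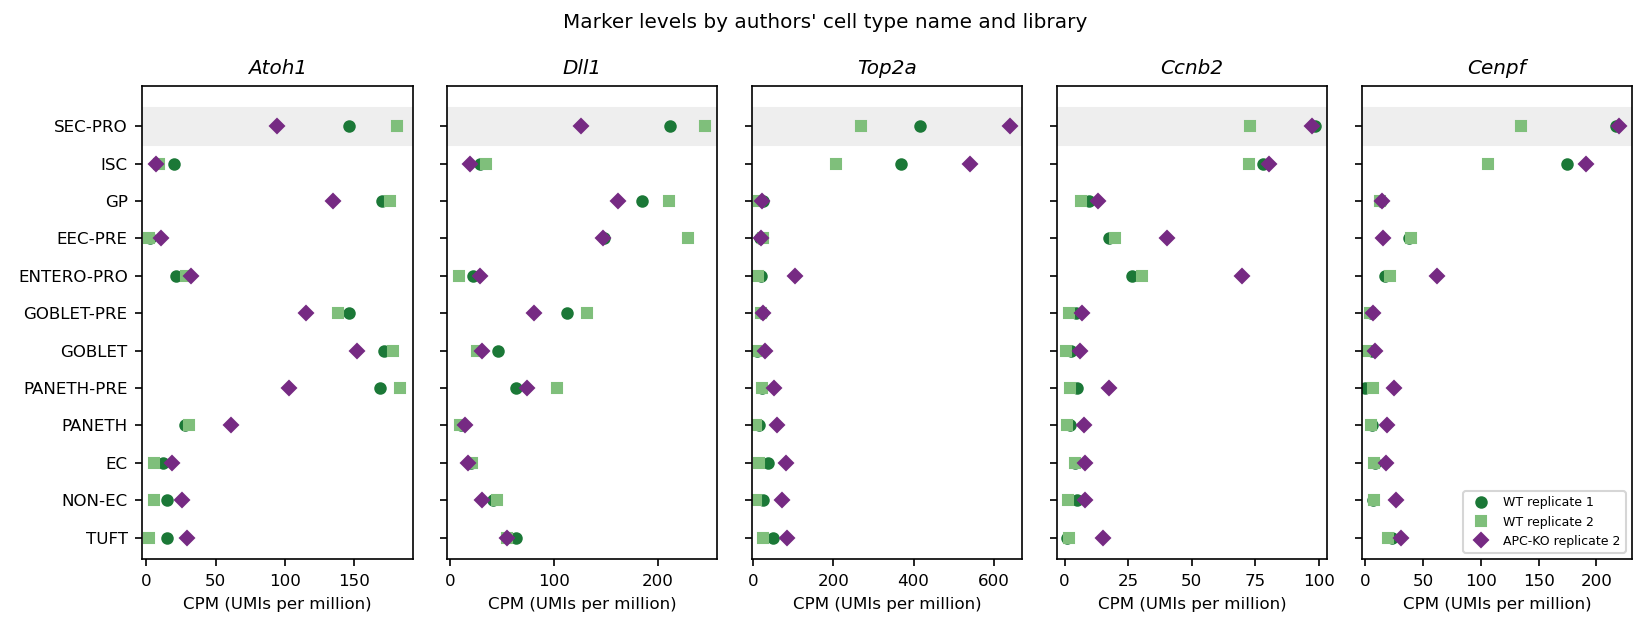
Levels of the 5 marker genes (CPM, x axes) in the 12 cell-type names (rows, SEC-PRO shaded), with 1 point per library for WT replicates 1 and 2 and APC-KO replicate 2. Top2a, Ccnb2 and Cenpf are highest in SEC-PRO with ISC close to it. Atoh1 and Dll1 are high in SEC-PRO and in GP and low in ISC, and Dll1 is also high in EEC-PRE.

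Against ISC, SEC-PRO held more of the goblet and secretory programme and less of the stem-cell genes, while few cell-cycle genes were 2-fold apart. A gene was counted when its log2(CPM + 10) differed by at least 1, that is 2-fold, in the same direction in each of WT replicate 1, WT replicate 2 and APC-KO replicate 2, and its mean was at least 20 CPM. By this rule 219 of 6059 genes were higher in SEC-PRO (3.61%) and 88 were lower (1.45%). No p is given, since the names came from the same counts. Differences are mean log2 ± SD over these 3 libraries.

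All 12 of 12 goblet genes were higher than in ISC, with a median of 2.79 against 0.00 over all genes. Agr2, a disulfide isomerase needed for mucin folding, had the largest difference: its CPM was 11529, 12814 and 4897 in SEC-PRO and 1143, 573 and 239 in ISC, a log2 difference of 4.03 ± 0.61 (SD, n = 3). The ranges did not overlap. Other large ones were Guca2a at 3.38 and Guca2b at 3.35, which encode guanylin peptides, Fcgbp at 2.91, a mucus protein, and Tff3 at 2.91, a trefoil peptide of goblet cells. Selenom at 3.46 and the chemokine gene Ccl9 at 3.41 also stood among the 12 largest. Of 22 genes for protein folding and transport in the endoplasmic reticulum (ER), 16 were higher and none lower, with a median of 1.24. They included Ern2 at 2.91, the stress sensor of mucous cells, Sdf2l1 at 1.62, Pdia6 at 1.62 and Hspa5 at 1.33. Txndc5, an ER disulfide isomerase, was at 2.92.

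Among 17 transcription factors of the secretory lineage that could be counted, 7 were higher in SEC-PRO than in ISC. Besides Atoh1 at 2.78 they were Creb3l1 at 3.21 ± 0.28, Cbfa2t3 at 2.99, Spdef at 2.95 ± 0.51, Klf4 at 2.74, Creb3l4 at 2.54 and Foxa3 at 2.01. Spdef, which drives goblet and Paneth maturation, stood at 135, 184 and 113 CPM in SEC-PRO and at 16.9, 7.80 and 5.51 CPM in ISC. Creb3l1, an ER-anchored factor, stood at 275, 304 and 218 CPM against 28.3, 22.0 and 11.2 CPM. The 1 lower factor was Ascl2, a stem-cell factor, at -1.92.

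Notch genes split by role. The ligands Dll1 and Dll4 were higher in SEC-PRO than in ISC, at 2.42 ± 0.17 and 1.76. The receptor Notch1 and the Notch target Hes1 were lower, at -1.50 and -1.40. Dll4 stood at 57.9, 78.7, 156 and 41.8 CPM in SEC-PRO and at 14.0, 12.1, 0 and 5.18 CPM in ISC. Hes1, which represses Atoh1, stood at 35.5, 35.5, 38.9 and 70.2 CPM in SEC-PRO and at 98.9, 128, 52.8 and 193 CPM in ISC. The other 5 of the 9 Notch genes counted were less than 2-fold apart in at least 1 library, and the median over the 9 was 0.31.

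Stem-cell and Wnt genes were lower in SEC-PRO. Of 10 ISC markers 6 were lower than in ISC (median -1.32), as were 4 of 10 Wnt targets (median -1.06): Ascl2, Lgr5 at -1.84, Cd44 at -1.41 and Axin2 at -1.17. Olfm4, a secreted glycoprotein of stem cells, had the most negative difference, -4.07 ± 0.80, with 169, 119 and 231 CPM in SEC-PRO and 2888, 3820 and 2349 CPM in ISC. Lgr5, the R-spondin receptor, was at 3.0, 4.9, 0 and 12.7 CPM in SEC-PRO against 42.0, 46.8, 13.2 and 58.8 CPM in ISC. Dmbt1, a mucosal scavenger protein, was lower by -3.33 ± 1.03. The rest of the 12 lowest were Nlrp6, Jaml, Otc, Kcnq1ot1, Tm4sf20, Mgst1, Cps1, Mpzl2, Fgfbp1 and Cftr, between -3.06 and -2.15. Otc and Cps1 encode urea-cycle enzymes, and Cftr the chloride channel of the crypt.

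Cell-cycle genes hardly separated SEC-PRO from ISC. Of 39 S-phase genes, 1 (Cdca7) was lower and none higher, with a median of -0.15. None of 46 G2/M genes was 2-fold apart in either direction, with a median of 0.25. Of 15 G1 cyclins, cyclin-dependent kinases and their inhibitors, Cdkn1a (p21, which halts the cycle) was higher at 1.35 and Cdk6, a G1 kinase, lower at -1.59. The level of Cdkn1a stepped up from name to name: 30.9, 33.3, 0 and 21.2 CPM in ISC, 78.6, 116, 38.9 and 72.9 CPM in SEC-PRO, 155, 178, 20.9 and 112 CPM in GP, and 862, 844, 227 and 446 CPM in EEC-PRE. The order held in 3 of the 4 libraries. In APC-KO replicate 1 the GP value was below that of SEC-PRO, but 5 SEC-PRO and 7 GP cells are too few to order them. The early-response genes Egr1, Fos and Atf3 were also higher than in ISC, at 1.44, 1.59 and 1.73.

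Against GP, SEC-PRO had far more cell-cycle RNA and lower levels of many goblet genes, most of them by less than the 2-fold counted. By the same rule, 172 of 5885 genes were higher in SEC-PRO than in GP (2.92%) and only 9 were lower (0.153%). Of 40 G2/M genes counted 34 were higher (median 2.27, against 0.07 over all genes), as were 25 of 32 S-phase genes (median 1.70), and none of either list was lower. Hist1h1b, a linker histone made in S phase, had the largest difference, 3.88 ± 0.14, at 457, 321 and 442 CPM in SEC-PRO and 19.2, 15.0 and 20.2 CPM in GP. Top2a followed at 3.82 ± 0.43. Mki67, the proliferation marker Ki-67, was at 632, 409 and 640 CPM against 33.8, 42.6 and 45.2 CPM, a difference of 3.48 ± 0.45. Pclaf at 3.76, a PCNA partner, Hist1h2ap at 3.48, Birc5 (survivin) at 3.26, Stmn1 at 3.21 and Cdca8 at 3.13 completed the 8 largest.

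Of the 9 genes lower than in GP, 3 were on the goblet list: Muc2, Clca1 and Guca2a. Rep15 was at -1.67 ± 0.26, Scin (an actin-severing protein) at -1.48, Nupr1 at -1.39, Muc2 (the gel-forming mucin) at -1.28 ± 0.08, Clca1 (a secreted mucus protease) at -1.28, Guca2a at -1.16, Fer1l6 at -1.14 and Neat1 at -1.12, with Kcnk6 the ninth. Muc2 stood at 2061, 1535 and 1799 CPM in SEC-PRO and at 4787, 3959 and 4370 CPM in GP. Of the 12 goblet genes 3 were lower by the rule, with a list median of -0.98, so SEC-PRO held most goblet genes below GP by less than 2-fold in at least 1 library. No ER folding gene of 22 passed the rule (median -0.42).

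The regulators of fate did not separate SEC-PRO from GP. None of 8 Notch genes was 2-fold apart (median 0.01), with Dll1 at 0.02 ± 0.31 and Hes1 at -0.04. Atoh1 was at -0.21 and Spdef at -0.57. The 1 of 17 secretory factors past the rule was Sox4, which acts early in endocrine and tuft fates, higher at 2.15 ± 0.16. Sox4 stood at 354, 335, 233 and 230 CPM in SEC-PRO, at 70.4, 60.1, 188 and 50.6 CPM in GP, at 202, 292, 52.8 and 262 CPM in ISC, and at 3618, 4149, 4038 and 2254 CPM in EEC-PRE. SEC-PRO and ISC overlapped in Sox4, and EEC-PRE lay about an order of magnitude above both. Of 6 ISC markers counted, Olfm4 and Cdca7 were higher than in GP, at 1.69 and 1.40. Cdk4, a G1 kinase, was higher at 1.14.

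**Figure D2:**
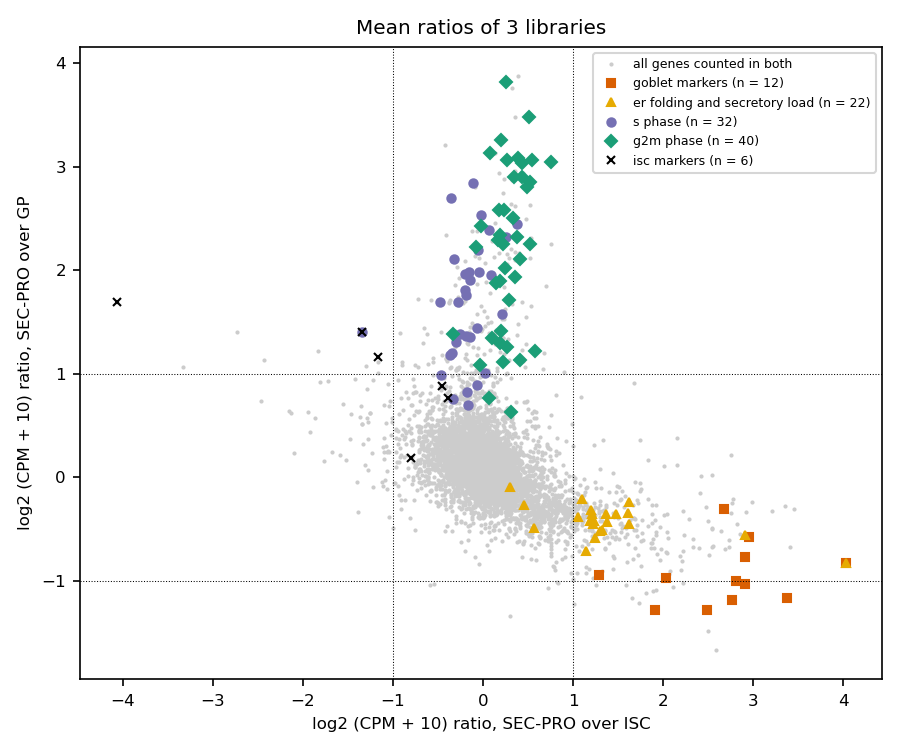
Each point is a gene, placed by its mean log2 (CPM + 10) ratio over 3 libraries in SEC-PRO over ISC (x axis) and SEC-PRO over GP (y axis); coloured symbols are the gene lists and dotted lines mark 2-fold. S and G2/M genes lie near 0 on the x axis and above 0 on the y axis, and goblet genes lie to the right on the x axis and slightly below 0 on the y axis.

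The comparison with EEC-PRE set SEC-PRO apart on both sides: 353 of 6239 genes were higher (5.66%) and 375 lower (6.01%). All 8 enteroendocrine markers counted were lower in SEC-PRO (median -3.31, against -0.02 over all genes). Neurod1 was at 6.25, 1.80 and 7.83 CPM in SEC-PRO and at 736, 545 and 792 CPM in EEC-PRE, a difference of -5.52 ± 0.03. Neurog3, the factor that starts the endocrine programme, was at 29.6, 35.1 and 24.5 CPM against 1915, 1631 and 1275 CPM, a difference of -5.34 ± 0.23. Nkx2-2 at -4.58, Insm1 at -4.53, Neurod2 at -4.34, Rfx6 at -3.99 and Pax4 at -3.61 are further endocrine factors. Olfm1 at -4.47 and Gadd45a at -4.34 were also among the 8 lowest.

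On the other side stood secretory and cell-cycle genes. Atoh1 was higher in SEC-PRO at 3.33 ± 0.87, as were Creb3l1 at 2.72, Spdef at 2.12, Creb3l4 at 2.10 and Klf4 at 1.92. Agr2 was at 3.62, Ccl9 at 3.85, Slfn9 at 3.69 and the tight-junction gene Cldn15 at 3.27. Of 12 goblet genes 7 were higher (median 2.18), and so were 10 of 22 ER genes (median 1.32), 29 of 41 G2/M genes (median 1.86) and 22 of 31 S-phase genes (median 1.62). Among cell-cycle inhibitors, Cdkn1c (p57) was lower in SEC-PRO at -4.39, Cdkn1a at -2.84 and Btg2, an antiproliferative factor, at -1.75. The G1 cyclins Ccnd1 and Ccnd2 were higher at 2.39 and 2.23.

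No gene set SEC-PRO beyond both of its neighbours. Of 5972 genes, none was 2-fold above both ISC and GP in each of the 3 libraries, and none was 2-fold below both. At 1.5-fold, 4 genes were above both and none below. These were Hmmr (a spindle protein; 0.92, 0.66 and 0.68 above the higher neighbour on the log2 scale), Cdc25b (a phosphatase that opens mitosis; 0.78, 0.60 and 1.36), Slc29a1 (a nucleoside transporter; 0.63, 0.77 and 0.87) and Fam111a (a replication-fork protease; 0.63, 0.84 and 0.81). Against all other names, 328 of 8815 genes had their highest mean level in SEC-PRO, 2 of them by 1.5-fold and none by 2-fold, and the next name was ISC for 205. Fam111a led with a mean margin of 0.76: 60.2, 72.4 and 81.9 CPM in SEC-PRO against 35.3, 36.2 and 42.6 CPM in ISC. The other leading genes were Hmmr at 0.75, Mxd3 at 0.63, Cks1b at 0.58, Depdc1a at 0.57, Sapcd2 at 0.57, Zw10 at 0.55, Cenpe at 0.54, Melk at 0.53 and Kif22 at 0.53. Most of these act in mitosis or in the cell cycle.

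The mixture was measured on a scale where GP is 0 and ISC is 1, computed per gene from log2(CPM + 10) and averaged over the 3 libraries. For genes 2-fold higher in ISC than in GP in every library, the 64 S and G2/M genes had a median position of 1.06 in SEC-PRO, and all 64 lay nearer ISC. The other 344 genes had a median of 0.53, with 183 nearer ISC and 161 nearer GP. For the 464 genes 2-fold lower in ISC the median was 0.27, and 444 lay nearer GP. SEC-PRO was therefore at the ISC level for the listed cell-cycle genes and closer to GP for the genes that GP holds at higher levels. The other 344 genes are only those off the 2 lists. Cell-cycle genes such as Hist1h1b and Pclaf are on neither list, so the median of 0.53 may mix them with stem-cell genes. It does not show that ISC genes outside the cell cycle lay midway.

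Sums over gene lists gave the same picture by library. The 12 goblet genes summed to 49815, 41155, 49767 and 48025 CPM in SEC-PRO, to 9613, 5195, 3694 and 5697 CPM in ISC, and to 89244, 74537, 70611 and 98149 CPM in GP, with no overlap between the 3 names. The G2/M list summed to 8202, 6179, 13569 and 9208 CPM in SEC-PRO, to 6534, 5044, 8668 and 7433 CPM in ISC, and to 1415, 1460, 1668 and 1538 CPM in GP. The S list summed to 2489, 2951, 1555 and 2648 CPM in SEC-PRO and was higher in ISC in every library, at 2995, 3210, 2151 and 3026 CPM. GP held 556, 566, 375 and 589 CPM. Within every library SEC-PRO was above ISC for the G2/M list and below it for the S list, although the ranges over libraries overlapped.

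Markers of other lineages were mostly low in SEC-PRO. The Paneth list summed to 5416, 5348, 5054 and 7967 CPM, against 4769, 4457, 1504 and 2462 CPM in ISC and 9118, 11056, 8988 and 5817 CPM in GP. Free RNA, taken from barcodes with 1 to 50 UMIs, held 32336, 54747, 15272 and 27272 CPM of the same genes. The enteroendocrine list summed to 251, 130, 0 and 144 CPM, the tuft list to 34.5, 21.1, 77.8 and 27.6 CPM and the enterocyte list to 1053, 1076, 1322 and 911 CPM. All 10 immune markers were at 0 in WT replicate 2 and APC-KO replicate 1 and summed to 4.93 and 8.80 CPM in the other libraries. Stromal and endothelial markers summed to at most 0.658 CPM. Doublets were not called here, and 2 cells of different types under 1 barcode would also pair goblet with cell-cycle RNA; their part was not tested. The authors' limit of 3000 genes per cell lay close to some SEC-PRO cells: 16.9, 20.7, 20 and 7.88% held over 2700 genes, against 20.5, 30.7, 23.1 and 6.67% of ISC and 3.06, 4.39, 0 and 0.220% of GP.

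Most SEC-PRO cells were assigned to S or G2/M. Phases were scored in scanpy from the S and G2/M lists after each cell was thinned to 2000 UMIs, which left out shallower cells. The share in S or G2/M was 88.9% of 530 cells in WT replicate 1 (exact 95% binomial interval 85.9 to 91.4), 85.5% of 380 in WT replicate 2 (81.6 to 88.9) and 93.1% of 830 in APC-KO replicate 2 (91.2 to 94.8). All 4 cells left in APC-KO replicate 1 were assigned to G2/M. ISC gave 93.7, 90.5, 90 and 91.3%, GP 20.1, 20.5, 0 and 26.7%, and EEC-PRE 30.2, 33.8, 20 and 32.2%. Intervals cover counting error only. Without thinning the SEC-PRO shares were 93.2, 89.9, 100 and 94.3%. The split between S and G2/M varied more between libraries: S took 32.3% and G2/M 56.6% in WT replicate 1, 47.1% and 38.4% in WT replicate 2, and 36.9% and 56.3% in APC-KO replicate 2.

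**Figure D3:**
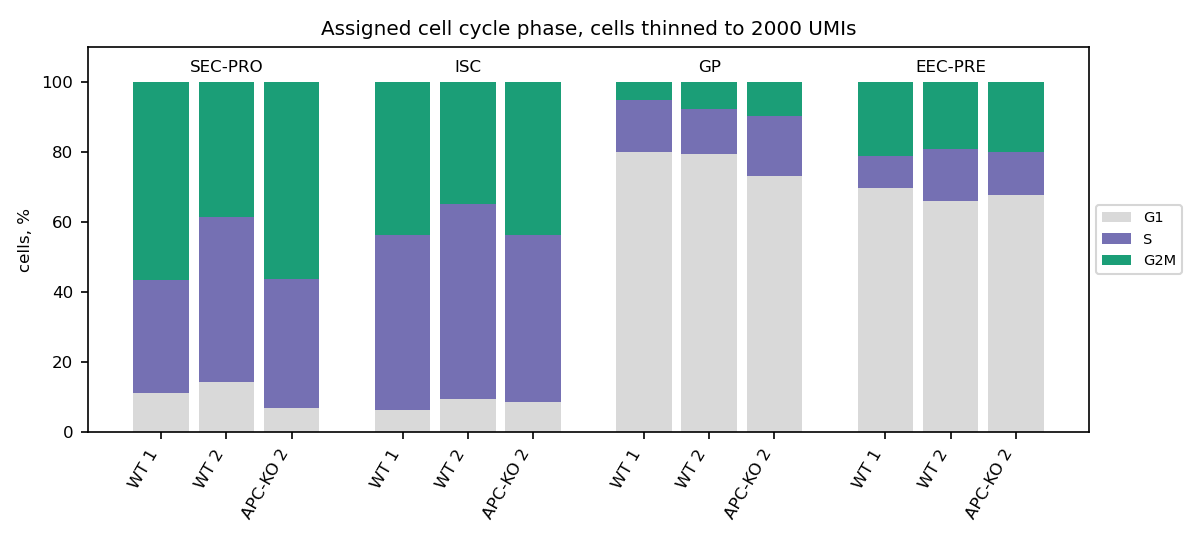
Stacked bars give the percentage of thinned cells assigned to G1, S and G2/M (y axis) in SEC-PRO, ISC, GP and EEC-PRE for WT replicates 1 and 2 and APC-KO replicate 2 (x axis). SEC-PRO bars, with 85.5 to 93.1% of cells in S or G2/M, resemble those of ISC, while GP and EEC-PRE are mostly G1.

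Within SEC-PRO the few G1 cells (59, 55 and 57 in WT replicates 1 and 2 and APC-KO replicate 2) differed from the cycling ones in some fate genes. Sox4 was highest in G1 in each library: 864 CPM in G1, 184 in S and 335 in G2/M in WT replicate 1, then 700, 302 and 325 in WT replicate 2, and 482, 191 and 253 in APC-KO replicate 2. Neurog3 was also highest in G1, at 42.4, 81.8 and 87.7 CPM in the 3 libraries, but on only 5, 9 and 10 UMIs. The goblet list ran the other way, from 36093 CPM in G1 through 46322 in S to 51445 in G2/M in WT replicate 1. It took 31155, 38274 and 46514 CPM in WT replicate 2, and 34351, 43338 and 49306 in APC-KO replicate 2. Muc2 showed the same order, at 1483, 1661 and 2290 CPM, 1064, 1427 and 1757 CPM, and 886, 1433 and 1935 CPM. The ER list was lowest in G1 in each library (19381, 21736 and 11570 CPM). Atoh1 was lowest in G1 in each library, at 110, 164 and 61.4 CPM, on 13, 18 and 7 UMIs. Dll1 was highest in G1, at 280, 300 and 149 CPM, on 33, 33 and 17 UMIs, with S at 272, 265 and 126 CPM and G2/M at 205, 226 and 134 CPM. For Spdef the highest and lowest phases differed between libraries. G1 is assigned to cells with low scores for both lists, so these differences are descriptions with no test.

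Cell-cycle and goblet RNA were counted under the same barcodes. Free RNA held more of the goblet list than the SEC-PRO sums given above. It stood at 61178, 63152 and 62607 CPM in WT replicates 1 and 2 and APC-KO replicate 2. The part of free RNA, like that of doublets, was not tested. Per 2000 UMIs, the median SEC-PRO cell held 18.5, 15 and 21 UMIs of the S and G2/M lists and 80, 68 and 75 UMIs of the goblet list, in WT replicates 1 and 2 and APC-KO replicate 2. The median ISC cell held 17, 14 and 18 and 5, 3 and 6, and the median GP cell 3, 4 and 4 and 166, 139 and 188. A cell was counted as holding both when its cell-cycle UMIs exceeded the 90 percent point of GP cells of its library and its goblet UMIs exceeded that of ISC cells. These limits hold ISC and GP to low shares by construction, so the contrast with them is no result. The goblet limit was 51.8, 16 and 13 UMIs and the cell-cycle limit 7, 7 and 8 UMIs. Shares therefore cannot be compared between libraries. Both were held by 64.7, 77.1 and 85.1% of SEC-PRO cells. The shares were 7.75, 8.14 and 7.84% in ISC, 8.21, 9.02 and 6.85% in GP and 2.12, 7.69 and 11.7% in EEC-PRE. Across SEC-PRO cells the Pearson correlation of the 2 sums was 0.020, -0.014 and -0.034, given as a description of cells that share a library and a fixed depth.

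**Figure D4:**
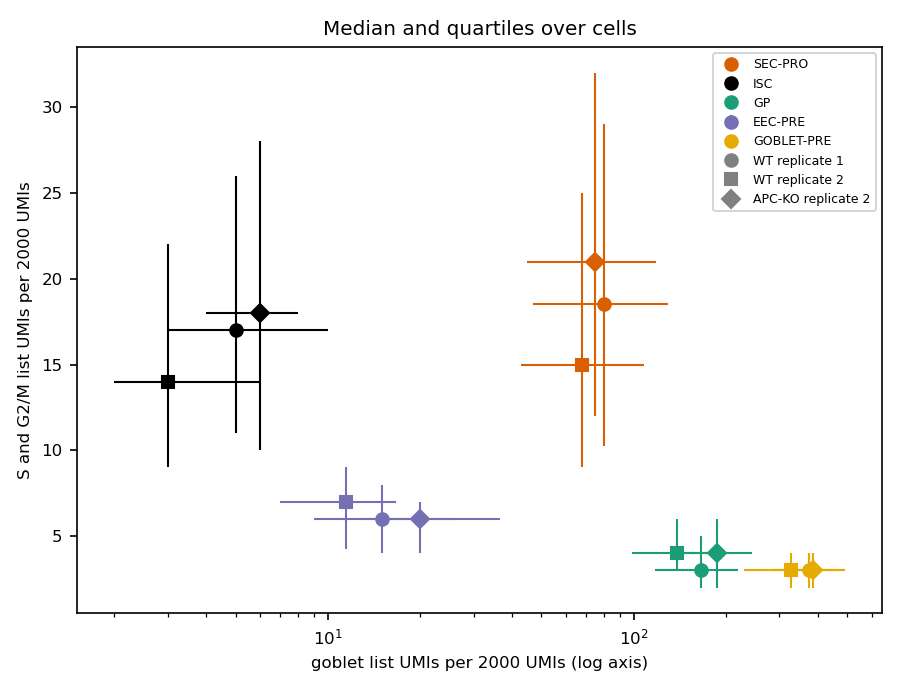
Points are medians and bars quartiles over cells, per 2000 UMIs, of goblet list UMIs (x axis, log) and S plus G2/M list UMIs (y axis), coloured by cell-type name with 1 symbol per library. SEC-PRO reaches the cell-cycle level of ISC and lies between ISC and GP for goblet UMIs.

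Shares of SEC-PRO cells with at least 1 UMI, after thinning to 2000 UMIs, gave the spread of fate genes over cells. Atoh1 was seen in 25.1, 29.7 and 18.4% of SEC-PRO cells and Dll1 in 33.2, 38.4 and 22.3%. The background shares were 1.41, 0.840 and 3.88% for Atoh1 in TUFT cells and 6.09, 0 and 4.76% for Dll1 in ENTERO-PRO cells, at the same depth. Muc2 was seen in 75.5, 74.2 and 75.3% of SEC-PRO cells, between ISC at 31.7, 16.7 and 26.9% and GP at 97.8, 96.1 and 96.8%, but its background in TUFT cells was 27.7, 13.4 and 44.0%. Spdef was seen in 20.2, 24.5 and 20.6%, with 5.63, 4.2 and 6.47% in TUFT cells. Mki67 was seen in 54.0, 40.0 and 53.3%, against 1.23, 0.741 and 4.31% of GOBLET cells.

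Other fate genes were rarer or near background. Lgr5 was found in 0 of 530 cells in WT replicate 1, which allows up to 0.566% of cells with a UMI at this thinned depth and limits no share of expressing cells, and in 1.58 and 1.81% in the other libraries, against 8.11, 7.24 and 11.1% of ISC. Without thinning, 7 of 543 SEC-PRO cells (1.29%) of WT replicate 1 held an Lgr5 UMI. Olfm4 was in 19.2, 11.3 and 22.2% of SEC-PRO cells, against 76.9, 77.4 and 82.8% of ISC and a background of 6.75, 4.81 and 10.2% in GOBLET cells. Neurog3 was in 3.02, 3.42 and 2.89%, above 0.613, 0 and 0% in GOBLET cells. Lyz1 (lysozyme of Paneth cells), at 36.8, 39.2 and 33.4%, lay close to its background of 26.4, 31.9 and 23.9% in GOBLET cells. The enterocyte gene Fabp1 was in 3.40, 2.89 and 7.95% of cells, at about its background of 3.77, 3 and 6.93% in PANETH cells. Pou2f3, the tuft factor, was in 0.189, 1.05 and 0.602%.

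The share of SEC-PRO among kept cells did not differ between genotypes beyond the spread of the libraries. It was 11.3% in WT replicate 1 (exact 95% binomial interval 10.4 to 12.2) and 10.1% in WT replicate 2 (9.19 to 11.1). In the APC-KO libraries it was 1.40% (0.458 to 3.25) and 13.8% (13.0 to 14.7), which lie on either side of both WT values. The WT mean was 10.7% ± 0.814 (SD, n = 2) and the APC-KO mean 7.61% ± 8.78 (SD, n = 2), which differ by -3.09 percentage points (exact two-sided permutation test over libraries, p = 1, smallest possible p 0.333). Without APC-KO replicate 1 the difference was 3.12 points and without APC-KO replicate 2 it was -9.30 points, so the direction rested on which APC-KO library was used.

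Apc was read first as a check of the labels. It stood at 91.8, 96.2, 117 and 97.3 CPM in SEC-PRO, and edgeR put its difference, APC-KO over WT, at 0.15 on the log2 scale with an SE of 0.17 and an adjusted p of 0.717. The sources used here do not name the floxed exons and the counts come from the 3' ends of transcripts, so this level checks nothing about the deletion.

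Genotypes were compared on UMIs summed over SEC-PRO cells, with edgeR's quasi-likelihood test and Benjamini-Hochberg adjustment over all genes. The 5 cells of APC-KO replicate 1 were left out, so 2 WT sums met a single APC-KO sum. That library and the genotype cannot be told apart, and its spread was assumed to equal that of WT. In the SEC-PRO sums of APC-KO replicate 2, 30 of 56 histone genes, 10 of 54 G2/M genes, 3 of 10 ISC markers and 5 of 10 enterocyte genes were higher, and 4 of 22 ER folding genes, Atoh1 and Dll1 were lower. Of 10560 genes 414 were higher (3.92%) and 224 lower (2.12%) at an adjusted p of 0.05, and DESeq2 on the same sums called 32. Without APC-KO replicate 2, with the 5 cells standing for the genotype, edgeR called 0 genes, with 712 at an unadjusted p under 0.05.

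Among genes named here with a mean of at least 50 CPM, the largest rise was in Dmbt1. It stood at 68.7 and 56.2 CPM in the WT libraries and at 324 CPM in APC-KO replicate 2, with 156 CPM in the 5 cells of APC-KO replicate 1, which edgeR fitted as 2.46 on the log2 scale with an SE of 0.19 and an adjusted p of 2.82e-09. Histone genes followed: Hist1h4d at 2.41 (91.1 and 36.4 CPM in WT, 326 in APC-KO replicate 2) and Hist1h4h at 1.98 (57.9 and 13.5 CPM, then 139), whose WT values themselves differed by over 2-fold. The metallothionein Mt2 was at 2.22 (42.8 and 20.7 CPM, then 143). Rps29, a ribosomal protein gene, was at 2.16 (2619 and 1716 CPM, then 9119). Rps29 was as different in other types, by 2.15 in ISC and 2.03 in GP, and in free RNA, at 2155 and 1675 CPM against 6414 CPM. In APC-KO replicate 1 it was at 2605 CPM in SEC-PRO, within the WT values. Other rises were not particular to SEC-PRO either. Mt2 differed by 2.41 in ISC, 1.45 in GP and 2.41 in EEC-PRE, with free RNA at 22.6 and 26.7 CPM in the WT libraries against 153 CPM. Hist1h4d differed by 2.19 in ISC, with free RNA at 39.7 and 19.3 CPM against 94.7 CPM, and Hist1h4h by 1.75 in ISC. Dmbt1 differed by 0.43 in ISC, 1.15 in GP and 1.26 in EEC-PRE, with free RNA at 676 and 550 CPM against 978 CPM. These are log2(CPM + 10) differences with no test, and the part of free RNA was not tested. DESeq2 called Dmbt1 and Rps29 (adjusted p = 1.37e-09 and 7.54e-08) but not Hist1h4d or Mt2 (1.00 and 0.789), and over all alternatives the adjusted p ranged from 2.53e-36 to 0.755 for Dmbt1 and from 1.02e-22 to 1.00 for Rps29. For Hist1h4d it ranged from 1.19e-34 to 1.00 and for Mt2 from 3.85e-33 to 0.789.

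Of all 56 genes with symbols beginning Hist, a group chosen after its values were seen, 30 were higher and 1 lower, with a median of 1.41. That median is over edgeR log2 fold changes. For ISC and GP the medians, 0.48 and 0.02, are over log2 ratios of CPM with a constant added to each level, with no test. The constant shrinks the ratios of genes at low levels. The 3 medians therefore cannot be compared, and whether the histone rise was particular to SEC-PRO was not tested. Among genes named here with a mean of at least 50 CPM, the lower histone gene, Hist1h2bc, had the largest fall. It stood at 182 and 205 CPM in WT and 66.5 CPM in APC-KO replicate 2, or -1.44 on the log2 scale (SE 0.19, edgeR). In APC-KO replicate 1 it was at 311 CPM, above WT. Zfp36, an RNA-binding repressor of early-response messages, was at -1.42 (70.4 and 90.8 CPM, then 27.9, with 233 in APC-KO replicate 1). For both genes the APC-KO libraries lay on opposite sides of WT.

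Both APC-KO libraries were below WT for Sdf2l1 and Agr2, which act in ER protein folding. In APC-KO replicate 1 these values rest on 5 cells, with 2 UMIs of Sdf2l1 and 226 of Agr2. Sdf2l1 stood at 267 and 300 CPM in the WT sums and at 77.8 and 105 CPM in the sums of APC-KO, or -1.33 on the log2 scale (SE 0.20) with an adjusted p of 0.000145 by edgeR. Agr2 fell from 11529 and 12814 CPM to 8787 and 4897 CPM, at -1.21 (SE 0.30, adjusted p = 0.0141, edgeR). Free RNA moved with Agr2, with 7076 and 8708 CPM in the WT libraries against 7432 and 3265 CPM, and its part in the result was not tested. Of the 22 ER genes 4 fell (Agr2, Dnajc3 at -0.81, Manf at -0.80 and Sdf2l1) and none rose, with a median of -0.41 against -0.00 over all genes. The ER list summed to 24737 and 27009 CPM in the WT libraries against 19984 and 14311 CPM. Agr2, also on the goblet list, is counted in these sums, so much of their difference repeats that of Agr2. Other names differed too, by log2(CPM + 10) of APC-KO replicate 2 against the WT mean, with no test. In ISC, GP and EEC-PRE in turn, Sdf2l1 differed by -1.24, -0.88 and 0.42, and Agr2 by -1.80, -0.68 and 0.97. Manf differed by -0.90, -0.49 and 0.08, and Dnajc3 by -0.74, -0.56 and -0.05.

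Among the markers of SEC-PRO, Top2a rose by 0.99 on the log2 scale (SE 0.23, adjusted p = 0.00993, edgeR), while Atoh1 changed by -0.69 (SE 0.19, adjusted p = 0.0277) and Dll1 by -0.76 (SE 0.19, adjusted p = 0.0174). DESeq2 called none of them, with adjusted p of 0.427, 1.00 and 0.943. Over all alternatives the adjusted p ranged from 7.94e-05 to 1.00 for Top2a, from 0.00906 to 1.00 for Atoh1 and from 0.00341 to 1.00 for Dll1. Ccnb2 and Cenpf, at 0.27 and 0.41, did not pass (adjusted p = 0.495 and 0.352, edgeR). Both APC-KO libraries were below both WT libraries in Atoh1 and Dll1 and above both in Top2a. In APC-KO replicate 1 this rests on 5 cells, with 2, 5 and 14 UMIs of Atoh1, Dll1 and Top2a. Of 54 G2/M genes 10 rose and none fell (median 0.35), among them Nusap1 at 1.32, Tacc3 at 1.15 and G2e3 at 1.00, which act on the spindle or in G2/M control. Of 43 S-phase genes Cdca7 rose and Pcna, the replication clamp, fell at -0.88, with a median of 0.10. The summed G2/M list was higher in APC-KO by 4198 CPM and the S list lower by -619 CPM (exact two-sided permutation tests over libraries, p = 0.333 and 0.667). The share of cells in S or G2/M was higher by 9.37 points (exact permutation test, p = 0.333). Without the few cells of APC-KO replicate 1 these differences were 2018 CPM, -72.4 CPM and 5.94 points. Other names were set beside these genes by log2(CPM + 10), APC-KO replicate 2 against the WT mean, with no test. In ISC, GP and EEC-PRE in turn, Top2a differed by 0.89, 0.14 and -0.03. Atoh1 differed by -0.53, -0.34 and 0.74, and Dll1 by -0.52, -0.28 and -0.34. Nusap1 differed by 1.34, 0.13 and -0.16, and Tacc3 by 0.90, 0.23 and -0.32. G2e3 differed by 0.77, 0.29 and 0.14, and Pcna by -0.87, -0.51 and -0.54.

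Wnt targets and Notch genes passed the test at shares near those over all genes given above, while ISC markers passed at larger shares. Lgr5, a Wnt target, rose by 1.82 (adjusted p = 0.0102, edgeR) from 3.0 and 4.9 CPM to 12.7 CPM, and was at 0 in the 5 cells of APC-KO replicate 1. It was the only 1 of 13 Wnt targets past the threshold in this fit, and Axin2 was at 0.55 (adjusted p = 0.0841). Of 10 ISC markers Cdca7, Lgr5 and Olfm4 (0.77) rose and Gkn3 fell. In the 5 cells of APC-KO replicate 1, Olfm4 was at 77.8 CPM against 169 and 119 CPM in WT, on 2 UMIs. Cdca7 there was at 38.9 CPM against 70.1 and 70.6 CPM, on 1 UMI. By log2(CPM + 10) in ISC, APC-KO replicate 2 against the WT mean with no test, Olfm4 differed by -0.51 and Cdca7 by 0.31. Hes1 rose by 1.08 (adjusted p = 0.000297, edgeR) and Dll1 fell, among 15 Notch genes tested. Hes1 in SEC-PRO of APC-KO replicate 2, at 70.2 CPM, was under the lowest ISC value of the 3 deep libraries, 98.9 CPM. In the 5 cells of APC-KO replicate 1 Hes1 was near its WT level, as given above. Hes1 in the ISC of APC-KO replicate 2 was also above both WT libraries.

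Other lineages showed both directions. Of 12 goblet genes only Agr2 passed the test, with a list median of 0.06. Of 12 Paneth genes Defa24 (1.20) and Defa17 (1.01), which encode alpha-defensins, rose and Mptx2 (-2.23) fell. Defensin genes are near-identical copies, so reads may be split between them. Of 10 enterocyte genes 5 rose (Apoa1 at 1.20, Apoa4, Apob, Fabp1 at 1.48 and Rbp2) and none fell, with a median of 0.93. Fabp1 was at 19.4 and 17.1 CPM in the WT sums against 272 and 48.2 CPM. Its share of cells with a UMI was at background, as given above, and free RNA of the enterocyte list amounted to 3426 and 3697 CPM in the WT libraries against 8945 and 4222 CPM; the part of free RNA was not tested. Insm1, an endocrine factor, fell at -2.01. None of the 15 stress genes passed, with a median of -0.30.

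**Figure D5:**
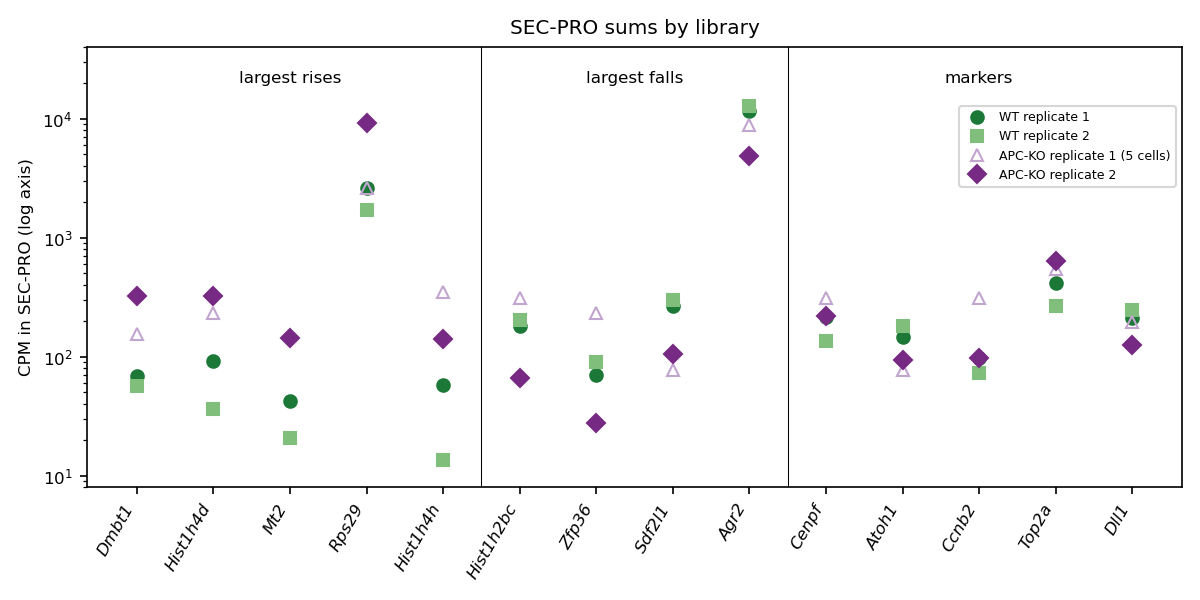
CPM in the SEC-PRO sums (log y axis) of the 5 largest rises, 4 of the largest falls and the 5 markers. Rises and falls were ranked among genes with a mean of at least 50 CPM. Each library has 1 symbol, open for the 5 cells of APC-KO replicate 1 (values of 0 are not drawn). WT libraries and APC-KO replicate 2 are separated for the rises and falls, while the open symbols lie on the WT side or beyond it for several genes, among them Rps29, Hist1h2bc and Zfp36.

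Whether a genotype difference in SEC-PRO differed from that in ISC was tested as an interaction in edgeR, with library as a block, on the SEC-PRO and ISC sums of the same 3 libraries. The effect was more positive in SEC-PRO for 49 of 11100 genes (0.441%) and more negative for 1 (0.00901%). Of 12 Paneth genes 7 passed (Ang4, Defa17, Defa24, Defa30, Itln1, Lyz1 and Mmp7; median 1.13 against 0.03 over all genes), as did 5 of 12 goblet genes (Ccl6, Muc2, Spink4, Tff3 and Zg16; median 0.53). All 7 Paneth genes were lower in the ISC of APC-KO replicate 2 than in both WT libraries. The interaction of the ISC marker Olfm4 was 1.20, with APC-KO replicate 2 above both WT libraries in SEC-PRO and below both in ISC. No G2/M, S-phase, ER, Notch or Wnt gene passed.

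Defa24 had the lowest p. It stood at 2638, 2159 and 5147 CPM in SEC-PRO and at 2321, 1874 and 1326 CPM in ISC, an interaction of 1.81 (adjusted p = 1.01e-19, edgeR). Free RNA held far more, at 16994, 23884 and 16008 CPM. With the profile of free RNA subtracted at 5% of each sum the value was 2.71. Itln1, an intelectin of Paneth and goblet cells, was at 665, 615 and 673 CPM in SEC-PRO and at 500, 612 and 172 CPM in ISC, an interaction of 1.79 (adjusted p = 1.16e-12). Here the SEC-PRO values were close and the ISC value was lower in APC-KO replicate 2. Free RNA of Itln1 was lower there too, at 3301 and 7327 CPM in the WT libraries against 2301 CPM, as was that of Lyz1, at 1880 and 3695 CPM against 1490 CPM, and of Ang4, at 757 and 1955 CPM against 513 CPM. With free RNA subtracted, the interaction of Itln1 was 3.01. Dmbt1 was at 1114, 1061 and 1466 CPM in ISC, so the rise in SEC-PRO was the larger one, by 1.98 (adjusted p = 8.46e-15). Otc, at 11.5, 13.0 and 37.2 CPM in SEC-PRO and 225, 226 and 169 CPM in ISC, gave 2.07 (adjusted p = 1.90e-07), and Mpzl2, an adhesion gene, 1.79 (adjusted p = 0.00111).

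Sox4 was the 1 gene with the more negative effect in SEC-PRO. It went from 354 and 335 CPM in WT to 230 CPM in APC-KO replicate 2 in SEC-PRO, while ISC had 202 and 292 CPM and then 262 CPM, an interaction of -0.68 (adjusted p = 0.0188, edgeR). With free RNA subtracted the Sox4 value was -0.69 and the call was lost (adjusted p = 0.0824, edgeR; from 4.74e-06 to 1.00 over all alternatives). DESeq2 called 5 genes in all, Defa24, Dmbt1 and Itln1 among them, and not Sox4. Leaving out either WT library, with APC-KO replicate 1 added back, gave 0 calls by edgeR, with 102 and 119 genes at an unadjusted p under 0.05. Replacing APC-KO replicate 2 by the 5 cells of APC-KO replicate 1 gave 40 calls, of which 6 were shared.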

How the data were processed

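TOM+ duodenal crypt cells of WT and APC-KO mice were sequenced as 4 single-cell 3' v3.1 libraries, per the labels' protocols. The deposited matrices hold raw UMI counts per gene and barcode, made with Cell Ranger 3.0.2 and STAR on mm10, per the submitters' processing notes. The authors' deposited cell tables give UMI and gene counts, the percent of mitochondrial UMIs and a cell-type name for each kept cell; how the authors named cells and treated doublets is not given in the sources used here, and doublets were not called. The tables' UMI totals and those of the matrices differed by at most 17 per cell. Of 31053 gene IDs, 30934 (99.6%) were found in GENCODE vM21.

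Counts were summed per library and name. Names were compared without a test, in libraries with at least 20 cells of both, by log2(CPM + 10), a mean of at least 20 CPM and 2-fold in every library. Genotypes were tested with edgeR 4.0.16 (R 4.3.3; TMM, filterByExpr, quasi-likelihood, Benjamini-Hochberg at 0.05), and DESeq2 1.42.0 was an alternative. Single values were compared by exact permutation over libraries, for which 2 against 2 cannot go below 0.333. Binomial intervals came from scipy 1.17.1. Phases were scored with scanpy 1.11.5. The fate-gene background came from a type expected to lack the gene. On simulated data, the edgeR script called 187 of 199 genes changed 4-fold between genotypes (10350 genes) and 173 of 200 in the interaction, all in the right direction, with 2.60% and 5.98% of calls unchanged genes. The rule for names found 165 of 200. The simulated edgeR sums were drawn from pooled means with 1 common spread, so they held no shift particular to 1 library. The shares of unchanged genes among the simulated calls therefore do not carry over to the real calls, which rest on a single APC-KO library.

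Named genes are the 12 highest and 12 lowest past the rule against ISC, 8 and 8 against GP and EEC-PRE, the 10 leading genes over all names, the 5 largest rises and falls of each fit with a mean of at least 50 CPM, members of the gene lists past a rule or among the 6 highest in SEC-PRO, and the 5 markers; model symbols are not named. Results of 2 genes that the rule names are not reported here. The regulators given with levels by name (Hes1, Dll4, Notch1, Lgr5, Cdkn1a and Axin2) and the histone group were added after their values were seen. SEC-PRO itself, its markers and the gene lists were chosen with earlier results of these data known.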

Additional observations from a re-analysis of the deposited data

Results flagged for a closer look

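The effect of genotype differed between SEC-PRO and ISC for 50 genes by the edgeR interaction test, over WT replicates 1 and 2 and APC-KO replicate 2. The differences of the log2 fold changes, SEC-PRO minus ISC, were 2.07 for Otc, 1.98 for Dmbt1, 1.81 for Defa24, 1.79 for Itln1, 1.79 for Mpzl2 and -0.68 for Sox4. Each rests on a single APC-KO library with enough SEC-PRO cells.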

How the results depend on the processing

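The genotype comparison gave 638 calls as reported. It gave 32 by DESeq2 (all shared), 354 with APC-KO replicate 1 added back (334 shared) and 96 with the replicate block, which needed that library (91 shared). Same-numbered libraries share only a number, and their deviations from the group means correlated at 0.046 over 9907 genes. Leaving out 1 library gave 0 calls without APC-KO replicate 2, and 102 and 59 without the first and the other WT library, both again with APC-KO replicate 1. The interaction gave 50 calls as reported, 5 by DESeq2, 77 with cells of at least 2000 UMIs, 25 with thinned cells and 0 to 40 with 1 library left out. With a mean of at least 50 CPM required, the comparison with GP gave 91 genes and that with EEC-PRE 454, in place of 181 and 728, since fewer genes were counted. The share difference of SEC-PRO turned to 3.12 points without APC-KO replicate 1, and its range over left-out libraries was -9.30 to 3.12. Without APC-KO replicate 2, leaving the 5 cells of APC-KO replicate 1, the log2 fold changes of 9 named genes turned: Mt2 -8.86, Rps29 -0.20, Hist1h2bc 0.23, Zfp36 1.09, Btg2 0.48, Cdca7 -1.31, Defa17 -2.68, Defa24 -0.43 and Olfm4 -1.36. So did 5 interactions: Otc -6.84, Mpzl2 -5.76, Sox4 1.30, Ang4 -8.03 and Olfm4 -0.96. A value for a gene with no UMI in the 5 cells depends on the prior count. The cause of these changes was not tested. Without thinning, the mean shares of SEC-PRO cells with a UMI were 45.9% for Atoh1, 57.5% for Dll1, 2.74% for Lgr5, 30.7% for Olfm4, 4.40% for Neurog3, 46.8% for Spdef, 86.6% for Muc2, 60.4% for Lyz1, 1.46% for Pou2f3, 11.5% for Fabp1 and 68.2% for Mki67, since more UMIs were counted per cell. The genotype fit was not run without a WT library on 3 sums, which leaves no residual degrees of freedom. Few SEC-PRO cells in APC-KO replicate 1 limit every genotype value.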
